A study of Mus musculus with 12 samples.

Results

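The RecQ helicases Blm, Wrn, Recql, Recql4 and Recql5 and the DNA end resection factors Rbbp8, Exo1, Dna2, Nbn and Rad50, 10 genes of DNA repair in all, were followed across medulloblastomas (MBs) and normal brain of the mouse. Members were taken by gene name, and their level was read from the probe sets of an Affymetrix mouse expression array that pair with that gene alone. The level of a gene was the mean log2 value of its probe sets without the suffixes s or x, which mark probes shared with other transcripts. Of the 18193 genes with a level, 9 were members. Rbbp8, which encodes the nuclease cofactor CtIP, was not analysed here. Recql5 lay within 0.01 of the lowest value of the arrays, a log2 level of 2.20, in every sample, and levels that close to it are described as at the lowest value. Thus 8 members had a level that could vary.

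The data comprised 8 MBs, cerebellar granule progenitor cells (GNPs) of 2 mice and whole cerebellum of 2 mice, with 1 array per mouse. Samples are named by group and mouse number as in the labels. The MBs arose in Nestin-cre p53-/- mice with conditional loss of Xrcc4, and their Xrcc4 alleles were c/- in MB_630, MB_794, MB_1187, MB_1197, MB_1207 and MB_1224 and c/c in MB_706 and MB_1206. Xrcc4 encodes a ligation factor of canonical non-homologous end-joining, and Nestin-cre deletes it in neural progenitors, not in every cell of the brain. The GNPs (CGNP_2698 and CGNP_2705) and cerebella (WC_2646 and WC_2647) came from animals that the study calls matched in age and genotype. Their exact Xrcc4 alleles and the ages of all groups are not given in the sources used here, so whether the normal samples share the p53 and Xrcc4 loss of the tumors cannot be read from the labels. The labels call the MBs tumor tissue, whereas the methods list cells of MB_630, MB_794, MB_1197, MB_1206, MB_1207 and MB_1224 as cultured.

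RecQ helicases unwind forked and recombining DNA, and loss of their human counterparts causes Bloom and Werner syndromes, with chromosome instability and cancer. End resection trims the 5′ strand at a break: the MRE11-RAD50-NBS1 complex and CtIP start the cut, and EXO1, or DNA2 with a RecQ helicase, extends it. Resected ends are repaired by homologous recombination or by alternative end-joining, and no longer by canonical end-joining. In neural progenitors, where replication is rapid, the same enzymes also act on stalled forks.

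In all samples, 42.2% to 43.4% of probe sets lay above a log2 level of 5, and the number of arrays limits the precision. Xrcc4 itself lay between 2.44 and 3.57 in the MBs, at 3.57 and 4.19 in the GNPs and at 4.25 and 4.34 in the cerebella. The log2 difference between 3′ and 5′ control probes, a sign of RNA quality, was 2.93 in MB_706. It ran from 0.559 to 0.816 over the remaining MBs and from 0.154 to 0.523 over normal brain. MB_630 had the highest levels among the MBs of markers of mature granule neurons (mean log2 level 7.46), Purkinje cells (5.75), oligodendrocytes (5.30), endothelial cells (4.40) and mesenchymal cells (6.68, where the other MBs ran from 2.96 to 4.14). Without MB_706 or without MB_630, the number of members called in each comparison of MBs with normal brain was the same as with them.

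Most members were higher in the MBs. Against the 4 normal samples as 1 group, 8 of the 9 measured members rose and 0 fell (limma, two-sided, Benjamini-Hochberg adjusted over all genes, threshold 0.05), where 20.0% of all genes rose and 16.4% fell. The median difference was 1.62 on the log2 scale over the members and 0 over all genes. For 7 members every MB lay above every normal sample, against 15.5% of all genes. The same 8 members rose against the GNPs alone, where 18.7% of genes rose, and 8 did not overlap, against 21.2% of genes. Against the cerebellum alone, the same 8 rose, where 22.2% of genes rose, and 7 did not overlap, against 24.3% of genes. Both comparisons use the same MB arrays, so their values stand side by side and are not independent.

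**Figure D1:**
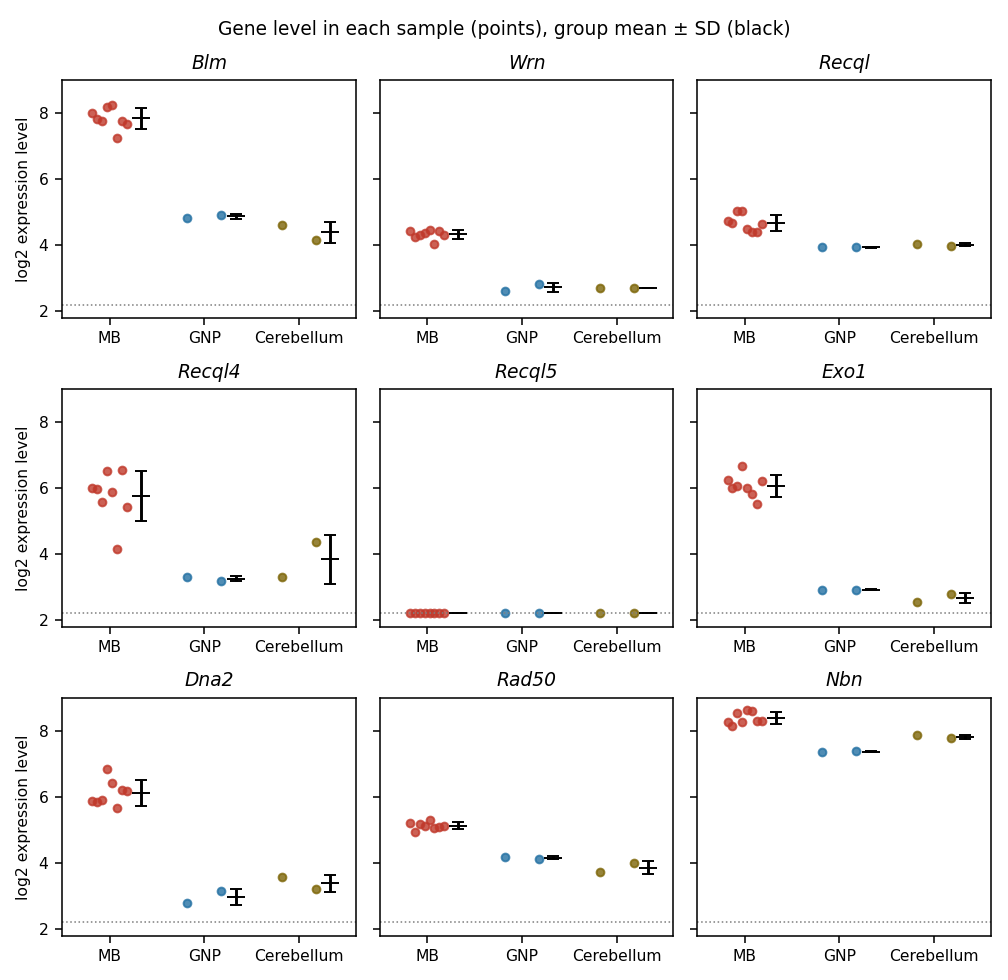
Log2 expression level (vertical axis) of each of the 9 measured members in the 8 MBs, 2 GNP and 2 cerebellum samples. Points are samples, black bars are group means ± SD, and the dotted line is the lowest value of the arrays; Blm, Exo1 and Dna2 show the widest gaps between MBs and normal brain, Recql4 overlaps in MB_630 and 1 cerebellum, and Recql5 lies on the line throughout.

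Among the RecQ helicases, Blm showed the widest separation by gene level. On Wrn probe set 1425074_at alone, the rise above normal brain was larger than that of Blm. Blm, mutated in Bloom syndrome, dissolves double Holliday junctions and works with DNA2 in resection. Its log2 level ran from 7.26 (MB_630) over a median of 7.80 to 8.27 (MB_1224) in the MBs, and was 4.82 and 4.93 in the GNPs and 4.61 and 4.17 in the cerebella. The lowest MB was thus 2.33 above the highest normal sample. The difference between MBs and normal brain was 3.21 (SE 0.195, adjusted p = 5.58e-07 by limma), a 9.27-fold higher signal. It was 2.97 against the GNPs (adjusted p = 6.52e-06) and 3.46 against the cerebellum (adjusted p = 1.25e-06). Blm has 1 probe set, so this level rests on a single measurement per array.

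Wrn, mutated in Werner syndrome, carries an exonuclease beside its helicase. Its log2 level ran from 4.04 (MB_630) over 4.35 to 4.45 (MB_1224) in the MBs, and was 2.62 and 2.81 in the GNPs and 2.70 in both cerebella. The groups did not overlap, and the MBs were higher by 1.62 (SE 0.0731, adjusted p = 8.56e-08 by limma). This mean is held down by 1 of its 3 probe sets, 1425982_a_at, which lay at the lowest value in every sample. Probe set 1425074_at rose from a mean of 3.24 in the GNPs and 2.78 in the cerebella to 6.56 in the MBs, 3.55 above normal brain, more than 1.5 times the difference of the gene mean. Probe set 1450163_a_at rose by 1.30. Both passed the test over all probe sets (adjusted p = 8.24e-07 and 0.000371 by limma).

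Recql, or RECQ1, restores reversed forks. Its log2 level ran from 4.40 (MB_706) over 4.66 to 5.04 (MB_1207) in the MBs, and was 3.93 and 3.94 in the GNPs and 4.05 and 3.98 in the cerebella. Every MB was higher than every normal sample, by at least 0.35. The difference from normal brain was 0.70 (SE 0.128, adjusted p = 0.00123 by limma). At the level of the gene mean, the calls against the single tissues were less firm. Without CGNP_2698 or CGNP_2705 the adjusted p against the GNPs was 0.051 and 0.0502, and without WC_2646 or WC_2647 that against the cerebellum was 0.0535 and 0.0784, at differences of 0.63 to 0.75.

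The probe sets of Recql differed widely. Probe set 1418339_at stood at 8.15 in the MBs, 6.15 in the GNPs and 6.53 in the cerebella, a difference of 1.80 from normal brain (adjusted p = 0.000136 by limma). It also passed against the GNPs (1.99, adjusted p = 0.000564 by limma) and against the cerebellum (1.61, adjusted p = 0.00161). Probe set 1436371_at stood at 3.19, 3.13 and 3.13 and probe set 1447198_at at 2.26, 2.21 and 2.21, and neither passed the test in any comparison with the MBs. Both enter the gene mean and hold down its difference. Probe set 1425798_a_at rose by 0.90 against normal brain, but its adjusted p was 0.0838 against the GNPs and 0.0567 against the cerebellum. The shared probe set 1439047_s_at, left out of the mean, stood at 8.73, 6.74 and 6.82. It passed against the GNPs and against the cerebellum (adjusted p = 0.00146 and 0.00143 by limma).

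Recql4, mutated in Rothmund-Thomson syndrome, takes part in the start of replication. Its gene level varied more among the MBs (SD 0.758) than that of any other member, from 4.16 (MB_630) over 5.92 to 6.55 (MB_706). It was 3.32 and 3.20 in the GNPs and 3.32 and 4.36 in the cerebella. MB_630 lay below WC_2647, and the other 7 MBs lay above every normal sample. Recql4, like Nbn, has 1 probe set, so its level rests on a single measurement per array. Its SD is thus set against SDs of means over several probe sets for most members. Among single probe sets, the next largest SD over the MBs was 0.615 (Exo1 1418027_at). The MBs were higher by 2.21 on average (SE 0.419, adjusted p = 0.00165 by limma), by 2.50 against the GNPs (adjusted p = 0.00484) and by 1.92 against the cerebellum (adjusted p = 0.0165). Without MB_630 the difference from normal brain was 2.44. Without WC_2646 the difference from the cerebellum was 1.40 and did not pass the test (adjusted p = 0.198).

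Recql5, which restrains recombination, gave no difference by its gene level. Its probe sets 1441537_at and 1457364_at lay within 0.01 of the lowest value in all 12 samples, the highest at 2.21 in MB_1206 for the latter, which says only that these probes gave next to no signal. The shared probe set 1421235_s_at, left out of the mean because of its suffix, stood between 4.34 and 5.14 in the MBs, at 4.33 and 3.53 in the GNPs and at 4.02 and 4.34 in the cerebella. The lowest MB (4.3391) and the highest normal sample (4.3364) all but met. On this probe set the MBs were higher by 0.69 (SE 0.191, adjusted p over probe sets = 0.0161 by limma), and by 0.81 against the GNPs (adjusted p = 0.0301). Against the cerebellum the difference was 0.57 and did not pass (adjusted p = 0.104). With all 3 probe sets averaged, the gene level of Recql5 passed against normal brain (0.23 higher in the MBs, adjusted p = 0.0152 by limma) and against the GNPs (0.27, adjusted p = 0.028).

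**Figure D2:**
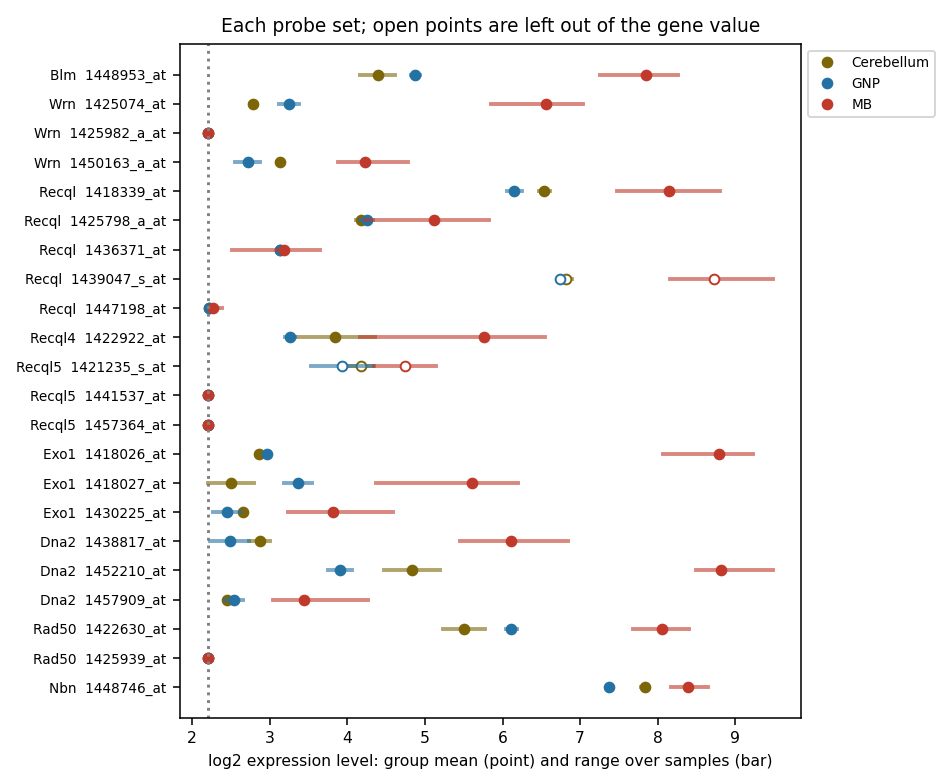
Log2 expression level (horizontal axis) of every probe set of the members. Points are group means and bars the range over samples for MBs, GNPs and cerebellum, open points mark the shared probe sets left out of the gene level, and the dotted line is the lowest value of the arrays; Exo1 1418026_at, at 8.79 in the MBs and below 3 in normal brain, shows the widest gap, whereas 1 probe set each of Wrn and Rad50 and 2 of Recql5 stay on the line.

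The promoter sequences of 4 members were at hand, from RefSeq on GRCm38.p6, covering 250 bases before the start of the transcript. They are shown for a helicase and a resection nuclease that rose together, Blm and Dna2, and for Recql5, whose gene level stayed at the lowest value. Capitals mark matches on either strand to CCAAT and to the GC box GGGCGG.
Blm, minus strand, chr7:80534999-80535248: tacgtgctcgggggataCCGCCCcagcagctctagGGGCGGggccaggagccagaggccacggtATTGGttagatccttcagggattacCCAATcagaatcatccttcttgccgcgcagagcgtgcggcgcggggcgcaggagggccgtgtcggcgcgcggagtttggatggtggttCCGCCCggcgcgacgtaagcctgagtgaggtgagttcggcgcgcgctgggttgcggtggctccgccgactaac
Dna2, plus strand, chr10:62946779-62947028: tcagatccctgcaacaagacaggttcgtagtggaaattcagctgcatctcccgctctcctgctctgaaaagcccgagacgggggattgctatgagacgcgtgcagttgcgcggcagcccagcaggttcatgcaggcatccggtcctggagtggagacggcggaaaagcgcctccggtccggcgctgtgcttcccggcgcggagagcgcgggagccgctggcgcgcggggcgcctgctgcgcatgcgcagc
Recql5, minus strand, chr11:115933493-115933742: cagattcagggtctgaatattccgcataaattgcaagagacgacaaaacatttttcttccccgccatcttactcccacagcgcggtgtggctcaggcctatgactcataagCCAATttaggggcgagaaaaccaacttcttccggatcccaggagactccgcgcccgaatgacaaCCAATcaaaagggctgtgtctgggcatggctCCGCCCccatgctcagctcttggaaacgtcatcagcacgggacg
The sequences of Blm and Recql5 hold CCAAT and the GC box, and that of Dna2 holds neither. No match in the 3 sequences overlaps another. Of 32851 promoters of this length, 33.8% hold CCAAT and 32.7% the GC box. The words TTTCCCGC, TTTGGCGC, TTTCGCGC and TTTGCCGC, read by E2F factors, occur in 1.86% of promoters, and the cell cycle words TTTGAA and TTCGAA in 17.1%. None of these occurs in the 5 promoters of Blm, Dna2, Recql5 and Recql, the last of which has 2 starts. A match is a description of letters and says nothing of binding.

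Among the resection factors, both long-range nucleases rose far above normal brain. Exo1, a 5′ to 3′ exonuclease that also acts in mismatch repair, had a log2 level from 5.53 (MB_706) over 6.04 to 6.67 (MB_1207) in the MBs. It was 2.93 and 2.92 in the GNPs and 2.56 and 2.78 in the cerebella, within 1 unit of the lowest value of the arrays. No MB came within 2.61 of a normal sample. The difference was 3.28 (SE 0.175, adjusted p = 2.55e-07 by limma), or 9.69-fold. Near the lowest value of the arrays a fold change is compressed.

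The 3 probe sets of Exo1 rose by unequal amounts. Probe set 1418026_at stood at 8.79 in the MBs, 2.96 in the GNPs and 2.85 in the cerebella, 5.89 above normal brain (adjusted p = 5.59e-09 by limma). Probe set 1418027_at rose by 2.68 and probe set 1430225_at by 1.26 (adjusted p = 0.00017 and 0.00556). In MB_706, the lowest for the gene, probe set 1418026_at read 8.93, within the range of the other MBs, while 1418027_at read 4.36, the lowest of the 8. This is the tumor with the high 3′ to 5′ control difference, and the part of RNA quality in its low Exo1 level was not tested.

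Dna2, a nuclease and helicase that resects together with Blm or Wrn and processes replication intermediates, also rose. Its log2 level ran from 5.66 (MB_630) over 6.05 to 6.86 (MB_1207) in the MBs, and was 2.80 and 3.15 in the GNPs and 3.56 and 3.21 in the cerebella. All MBs lay at least 2.10 above all normal samples. The MBs were higher by 2.95 (SE 0.219, adjusted p = 2.38e-06 by limma), 7.70-fold. Probe set 1452210_at rose most, by 4.45, with 8.82 in the MBs, 3.90 in the GNPs and 4.84 in the cerebella. Probe set 1438817_at stood at 6.11, 2.48 and 2.87 and rose by 3.44 (adjusted p = 3.23e-06 by limma). Probe set 1457909_at rose by 0.95 and, against the GNPs, did not pass (adjusted p = 0.0638).

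The members of the MRE11-RAD50-NBS1 complex, which senses breaks and starts resection, rose less on the log2 scale. Nbn, which encodes NBS1 and recruits the ATM kinase, ran from 8.17 (MB_1197) over 8.31 to 8.65 (MB_1224) in the MBs, and was 7.37 and 7.38 in the GNPs and 7.88 and 7.79 in the cerebella. The cerebella lay between the GNPs and the MBs, with no overlap of the 3 groups. The MBs were higher by 0.79 (SE 0.125, adjusted p = 0.000483 by limma), by 1.02 against the GNPs (adjusted p = 0.000114) and by 0.56 against the cerebellum (adjusted p = 0.00371).

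Rad50, the ATPase that tethers the ends, ran from 4.94 (MB_1197) over 5.12 to 5.30 (MB_1224) in the MBs, and was 4.19 and 4.12 in the GNPs and 3.72 and 3.99 in the cerebella. The groups did not overlap, and the SD was 0.106 over the 8 MBs. The difference from normal brain was 1.12 (SE 0.0868, adjusted p = 3.23e-06 by limma). One of its 2 probe sets, 1425939_at, lay within 0.01 of the lowest value throughout, the highest at 2.21 in WC_2647. The other, 1422630_at, stood at 8.05 in the MBs, 6.11 in the GNPs and 5.50 in the cerebella, 2.24 above normal brain. Its SD over the MBs was 0.211. The gene mean, which averages both probe sets, thus shows a smaller change and a smaller SD. Mre11a, the nuclease of the complex and no member, stood at 6.09, 4.87 and 3.95 and was 1.68 above normal brain (adjusted p = 3.66e-05 by limma).

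**Figure D3:**
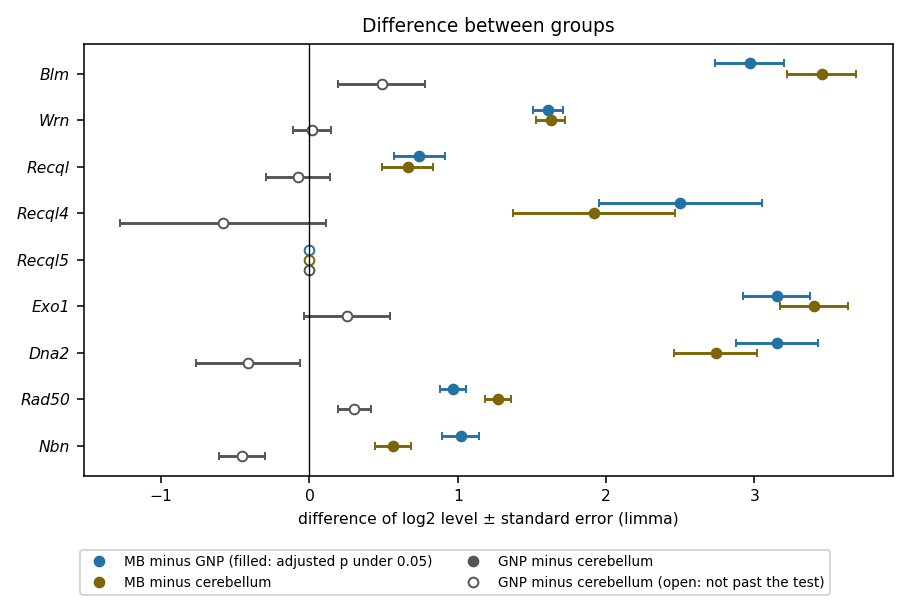
Difference of log2 level between groups (horizontal axis) for each member, with its standard error from limma. Blue points are MBs minus GNPs, brown points MBs minus cerebellum and grey points GNPs minus cerebellum; filled points passed the test at an adjusted p of 0.05, and no grey point is filled.

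The study pools the GNPs with the cerebellum, and the members were therefore also compared between these tissues. None of the 9 members passed the test by limma, where 14.9% of genes were higher and 13.6% lower in the GNPs. At an unadjusted p under 0.05, Nbn and Rad50 differed. Nbn was lower in the GNPs by 0.46 (SE 0.155, adjusted p = 0.0539) and Rad50 was 0.30 higher (SE 0.112, adjusted p = 0.0728). The 2 samples of each tissue did not overlap for 3 members that were higher in the GNPs (Blm, Exo1 and Rad50) and 3 that were lower (Recql, Dna2 and Nbn), against 31.5% and 27.8% of all genes. Blm differed by 0.49 (SE 0.294, adjusted p = 0.271) and Recql4 by -0.58 (SE 0.694, adjusted p = 0.685). With 2 samples a tissue, a missed threshold does not show that the tissues were alike.

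The call for Nbn turned on the setting. With limma, Nbn passed without MB_1197 (adjusted p = 0.0427), without MB_1224 (0.0340) and without MB_630 (0.0423), which enter through the shared spread alone. Rad50 passed without MB_1197 (0.0460) and without WC_2647, where its difference was 0.44 (adjusted p = 0.0280).

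Genes of dividing cells differed between the normal tissues. Of 9 measured, all 9 rose in the MBs against normal brain, against the GNPs and against the cerebellum (limma), and 6 of 9 exceeded the cerebellum in the GNPs, with a median difference of 2.03. Mki67, the Ki67 antigen, stood at 12.31 in the MBs, 9.02 in the GNPs and 2.29 in the cerebella. The replication helicase subunits Mcm2 and Mcm5 and the checkpoint kinase Bub1 did not pass between GNPs and cerebellum, at 0.05, 0.48 and 1.27. The summed log2 level of the list was 79.7 to 87.3 in the MBs, 48.2 to 51.1 in the GNPs and 25.8 to 26.9 in the cerebella. The list thus moved with the members between MBs and normal brain, and its part in their rise was not tested.

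Markers of other cells also moved between the groups. Of 8 microglia markers, 6 were higher in the MBs than in normal brain, 7 than in the GNPs and 4 than in the cerebellum, and 0 were lower. Their summed log2 levels were 51.2 to 63.3 in the MBs, 28.7 to 37.2 in the GNPs and 46.5 to 47.3 in the cerebella. Tmem119 stayed within 0.5 of the lowest value in the mean of each group. Of 5 mesenchymal markers, all 5 were lower in the MBs than in the GNPs and 0 passed against the cerebellum, with sums of 14.8 to 33.4 in the MBs, 36.5 to 37.9 in the GNPs and 21.2 to 21.9 in the cerebella. Markers of mature granule neurons summed to 8.10 to 22.4 in the MBs, 10.4 to 11.3 in the GNPs and 35.1 to 35.8 in the cerebella. All 3 of them, all 4 Purkinje markers and all 5 oligodendrocyte markers were lower in the MBs than in the cerebellum. The Purkinje markers summed to 10.6 to 23.0 in the MBs, 14.5 to 15.2 in the GNPs and 41.6 to 42.0 in the cerebella, and the oligodendrocyte markers to 16.1 to 26.5, 23.1 to 30.2 and 47.6 to 47.8. Markers of astroglia summed to less in every MB (22.6 to 31.3) than in the GNPs (37.6 to 37.8) and the cerebella (34.5 to 34.6), and 3 of 5 were lower against each tissue. Of 5 endothelial markers, 0 passed against normal brain or the GNPs and 2 were lower against the cerebellum, with sums of at most 12.2 in the GNPs and at least 22.2 in the cerebella, and from 12.6 in MB_1206 up to just under that of the cerebella in MB_630. Of 6 markers of granule lineage progenitors, 5 were higher and 1 lower in the MBs than in normal brain. Atoh1, the transcription factor of that lineage, stood at 11.95 in the MBs, 5.95 in the GNPs and 2.76 in the cerebella. Zic1 stood at 13.51, 13.80 and 13.87 and was lower by 0.33 in the MBs than in normal brain (adjusted p = 0.0087 by limma). The GNPs exceeded the cerebellum for 4 of the 6 and lay below it for 1, Gli1, at 2.30 against 3.50 (adjusted p = 0.0359 by limma). Of the 5 astroglia markers, only Gfap passed between GNPs and cerebellum, at 9.02 against 5.01 (adjusted p = 0.00219 by limma). The part of cell makeup in the members' differences was not tested, and in bulk RNA fewer cells of a type and less RNA per cell cannot be told apart.

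**Figure D4:**
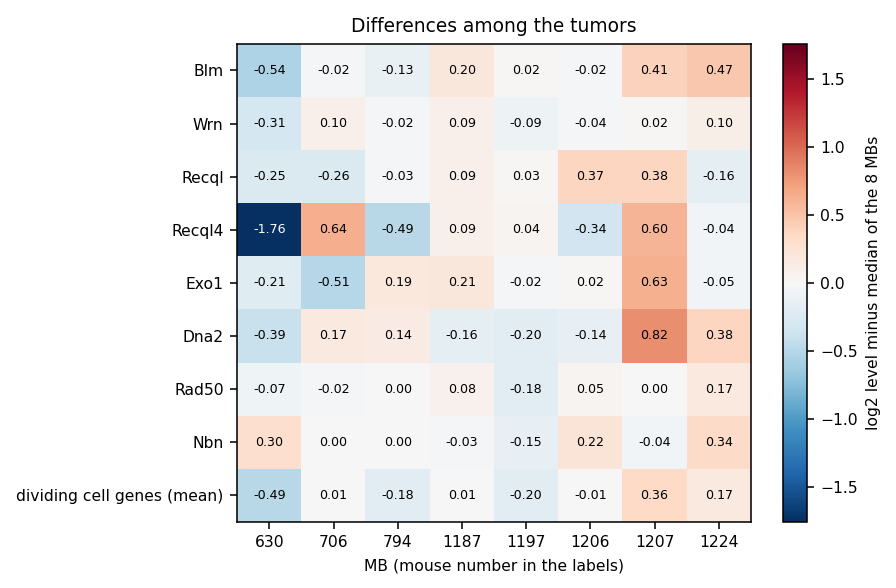
Log2 level of each member in each MB minus the median of the 8 MBs (colour and printed value), with the mean of the dividing cell genes in the last line. By these gene levels, MB_630 is lowest for Blm, Wrn, Recql4 and Dna2, and MB_1207 is highest for Recql, Exo1, Dna2 and the dividing cell genes.

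The range over the 8 MBs was smaller than the mean difference from normal brain for each of these members but Recql4 (range 2.39 against 2.21). Over the 8 members with a variable level, MB_630 was lowest for 4 (Blm, Wrn, Recql4 and Dna2). MB_706 was lowest for 2 (Recql and Exo1) and MB_1197 for 2 (Nbn and Rad50). For Recql, MB_706 was lowest on probe set 1425798_a_at (4.23). On 1418339_at it read 7.99, above MB_630 (7.48) and MB_1224 (7.71). MB_706 has the high 3′ to 5′ control difference, and the part of RNA quality in its Recql level was not tested. By gene level, MB_1224 was highest for 4 (Blm, Wrn, Nbn and Rad50), MB_1207 for 3 (Recql, Exo1 and Dna2) and MB_706 for Recql4. For Wrn and Recql this place belongs to the mean of the probe sets. Wrn was highest in MB_1207 on 1425074_at (7.04) and in MB_1187 on 1450163_a_at (4.78). Recql was highest in MB_1206 on 1418339_at (8.81), 1425798_a_at (5.83) and 1439047_s_at (9.48), and in MB_1207 on 1447198_at alone. MB_630 was low for Blm but second highest for Nbn, at 8.61, so that no tumor was lowest for every member. The mean log2 level of the dividing cell genes was also lowest in MB_630 (8.85) and highest in MB_1207 (9.70).

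The study lists chromosomes with complex genome rearrangements in 5 of these MBs, and 3 members lie on such a chromosome. Recql on chromosome 6 stood at 5.03 in MB_1206, the seventh from the lowest of 8. Blm on chromosome 7 stood at 8.20 in MB_1207, also the seventh, and at 7.77 in MB_706, the third. Recql4 on chromosome 15 stood at 5.87 in MB_1224 and at 5.43 in MB_794, the fourth and the second from the lowest. The Recql rank belongs to the mean of its probe sets. MB_1206 was the highest MB on 1418339_at (8.81), 1425798_a_at (5.83) and the shared 1439047_s_at (9.48). On the low probe sets 1436371_at and 1447198_at it lay below MB_1207. The ranks by gene level are a description, with no test, and lay on both sides of the median.

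The other genes of these pathways moved unevenly. Among partners of the RecQ helicases, 4 of 7 rose in the MBs against normal brain and 1 fell, with a median difference of 0.25. Against the GNPs alone 4 rose and 2 fell, and against the cerebellum 4 rose and 0 fell. Top3a, the topoisomerase that acts with Blm, showed the largest rise, from 3.57 in the GNPs and 2.62 in the cerebella to 5.42 (difference 2.32, adjusted p = 0.000149 by limma). Rmi1, the scaffold of the same complex, fell by 0.55 (adjusted p = 0.0272), a call not passed against the cerebellum alone (-0.34, adjusted p = 0.237). The complex partners Blm, Top3a and Rmi1 did not all move one way, and Rmi2 stayed near the lowest value, at 2.41 in the MBs.

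Of 12 further resection factors and subunits of the single-strand binding protein RPA, 10 rose in the MBs and 0 fell against normal brain, with a median of 2.22. Against the GNPs 11 rose and 0 fell, and against the cerebellum 10 rose and 1 fell, Exd2, which was 0.44 higher than in the GNPs (adjusted p = 0.0115 by limma) and lower than in the cerebellum by 0.50 (adjusted p = 0.00456). Uhrf1, known chiefly for maintaining DNA methylation after replication, rose most, by 5.43 (adjusted p = 1.97e-05 by limma). The RPA subunits, which coat the resected strand, rose too, Rpa1 by 1.08, Rpa2 by 2.54 and Rpa3 by 2.61. Between GNPs and cerebellum, 5 of the 12 were higher and 2 lower in the GNPs. Mre11a was among those higher, by 0.93 (adjusted p = 6.91e-05), whereas its partners Rad50 and Nbn did not pass.

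Of the inhibitors of resection, 3 of 7 measured rose and 0 fell against normal brain, while 4 rose and 1 fell against each tissue alone. Those that fell differed, Dynll1 against the GNPs (-0.64, adjusted p = 0.00466 by limma) and Shld1 against the cerebellum (-0.74, adjusted p = 0.0359). Rif1, a partner of 53BP1, was 2.10 higher in the MBs than in the GNPs (adjusted p = 1.44e-06), and its difference from the cerebellum was -0.25 and did not pass (adjusted p = 0.159). Mad2l2, the REV7 subunit of shieldin, rose most, by 3.70 (adjusted p = 2.53e-06 by limma), from 7.28 in the GNPs and 6.24 in the cerebella to 10.46. Of 10 other repair helicases and translocases, 4 rose and 0 fell in each of these comparisons, with a median of 0.02 against normal brain. Pif1, a helicase that unwinds G-quadruplexes, rose most, from 3.80 and 3.04 to 7.12 (difference 3.70, adjusted p = 1.78e-06). Ddx11, Zranb3 and the Fanconi helicase Brip1 also rose, by 2.08, 2.21 and 1.79, and Rtel1 lay at the lowest value in every sample.

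**Figure D5:**
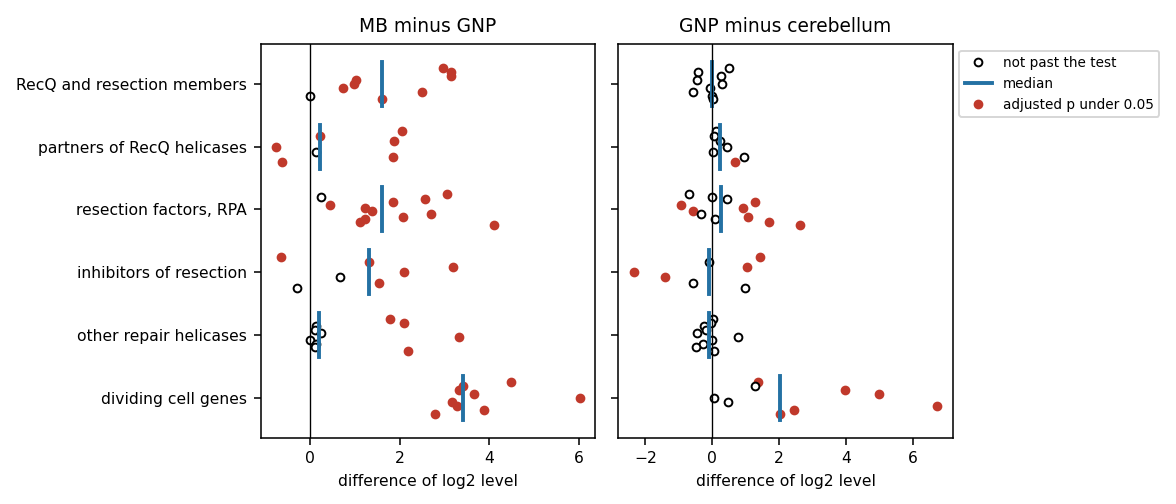
Difference of log2 level (horizontal axis) for each measured gene of 6 lists, MBs minus GNPs on the left and GNPs minus cerebellum on the right. Red points passed the test at an adjusted p of 0.05, open points did not, and blue bars are list medians; the members lie mostly right of 0 on the left and around 0 on the right, whereas 6 of 9 dividing cell genes are red on the right.

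The genes whose levels followed Blm most closely over the 12 samples, among 9413 genes with a log2 level over 5 in at least 1 group mean, were Mms22l, Racgap1 and Lyar (Pearson r of 0.996, 0.996 and 0.995). For Exo1 they were Gtpbp10, Ttf2 and Mcm3 (0.994, 0.993 and 0.992). These samples fall into MBs and normal brain and share their arrays with the members, so such values describe the step between these groups. For Recql5, at the lowest value, no such list was made.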

How the data were processed

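RNA of 12 mice was hybridized to Affymetrix mouse expression arrays. The deposited log2 levels, 1 per probe set and array, had been made by the authors with affy in R and normalized by GCRMA. The table holds 45101 probe sets, of which 34945 paired with 1 gene in the platform annotation, 932 with several and 9160 with none, and 64 are controls. Probe sets were averaged to 18193 genes as described above, with no filter on level, and for 290 genes with the suffix s or x on every probe set all were averaged. Groups came from the labels. Two-sided tests used limma 3.58.1 in R 4.3.3, with p-values adjusted after Benjamini and Hochberg over the whole table and called at 0.05. A fit of 8 MBs against 4 normal samples, as the study pools them, and a fit of 3 groups were used, without covariates, and the labels give no batch. The scripts were checked on simulated data. All 10 members are named, and of each other list the gene with the largest rise and the largest fall past the test, with others where a result turns on them, these chosen after their values were seen. The members and lists were chosen with earlier results of these data known. Alternatives covered the averaging of probe sets, normalization, array weights, eBayes with trend and robust options, a filter on low levels, the methods' t-test and leaving out each sample. Promoters were matched by symbol.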

Additional observations from a re-analysis of the deposited data

Results flagged for a closer look

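In MB_630, the gene levels of Wrn (4.04) and Recql4 (4.16) lay apart from the other 7 MBs. The gap to the next MB was 0.534 and 0.531 of the whole range. Both exceed the limit of 0.526 for 8 samples, a limit that chance passes in about 1 of 20 groups. That rate holds for 1 gene. The limit was applied to all 8 members with a variable level, over the same arrays, so a pass by chance is likelier over the set. The Recql4 level rests on 1 probe set. The Wrn gap belongs to the mean of its 3 probe sets. On 1425074_at MB_630 was lowest (5.85, with the next, MB_1187, at 6.32). On 1450163_a_at it read 4.06, above MB_1206 and MB_1207, both at 3.87. With MB_630 left out, Recql4 was 2.44 above normal brain on the log2 scale (adjusted p = 0.000112 by limma).

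The shared probe sets left out of the gene levels gave signal. The mean over the MBs was 8.73 for Recql probe set 1439047_s_at, against 6.74 in the GNPs and 6.82 in the cerebella, and 4.74 for Recql5 probe set 1421235_s_at, against 3.93 and 4.18.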

How the results depend on the processing

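Members called ranged from 7 to 9 for MBs against normal brain and against the GNPs and from 6 to 9 against the cerebellum, over all alternatives. The lowest count came without WC_2646, where Recql and Recql4 did not pass. With a filter on mean level, 7 members were tested and all 7 rose. For GNPs against cerebellum, 0 members were called, but 1 with quantile normalization (Rad50), 2 with arrays shifted to the same median (Nbn and Recql5), 1 with the methods' t-test unadjusted (Nbn) and 0 to 2 when single samples were left out. That shift lowered the MBs by 0.156 relative to normal brain and by 0.198 relative to the cerebellum on the log2 scale, and it made Recql5, within 0.01 of the lowest value in every sample, pass as lower in the MBs by construction. All 8 rises in the MBs held relative to it. The sign of small differences between GNPs and cerebellum that did not pass turned in 7 cases. Wrn was -0.066 with arrays shifted to the same median, -0.078 without CGNP_2705 (-0.078 to 0.113 over the samples left out in turn) and -0.42 on probe set 1450163_a_at. Recql was 0.070 on probe set 1425798_a_at and 0.00084 on 1436371_at, Exo1 was -0.21 on 1430225_at and Dna2 was 0.083 on 1457909_at. The cause was not tested. No paired analysis was possible because the groups share no mouse numbers. With 2 samples in each normal tissue, the spread is set mainly by the MBs.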
